A study of Homo sapiens with 3 samples.

Results

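The 10 genes described here encode the RHEB paralogs and the core control proteins of the mTOR kinase complexes: *RHEB*, *RHEBL1*, *TSC1*, *TSC2*, *MTOR*, *RPTOR*, *RICTOR*, *MLST8*, *AKT1S1* and *DEPTOR*. They were taken by symbol from the deposited expression table, which lists 23131 genes, and all 10 have a row. RNA came from HCT-116, an established colon carcinoma line that carries wild-type APC and the β-catenin mutation CTNNB1ΔSer45 in every group. One library was made from cells given a pool of siRNA against *APC* on consecutive days. One was made from cells that received no siRNA, labelled both untransfected and mock (reagent only), and cells of both libraries were collected 48 hours after the second transfection. The library of scrambled siRNA was not analysed here, so a difference between the 2 libraries used includes any effect of siRNA delivery. With 1 library per condition there is no replicate check and no test, and every difference below is one between these libraries.

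RHEB is a small GTPase at the lysosome that, when bound to GTP, switches on the kinase complex mTORC1 and through it protein synthesis and growth. The TSC1-TSC2 complex makes RHEB hydrolyse its GTP and so keeps mTORC1 off. Kinases of several pathways act on TSC2, among them AKT, AMPK and GSK3, and GSK3 is also part of the complex with APC that marks β-catenin for degradation. MTOR and MLST8 belong to both mTOR complexes, RPTOR defines mTORC1 and RICTOR defines mTORC2, while AKT1S1 (PRAS40) and DEPTOR hold the kinase back.

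*APC* itself had 9.15 FPKM in untransfected cells and 3.43 FPKM with the siRNA against it (FPKM is the number of fragments scaled to transcript length and to all mapped fragments). The WNT target *AXIN2* had 4.11 and 28.7 FPKM, and *CTNNB1*, which encodes β-catenin, had 177 and 178 FPKM. Of 9 colon epithelial markers, 6 had a mean of at least 1 FPKM, and *VIL1*, *KRT20* and *LGR5* did not. The summed level of the 9 markers was 1650 FPKM without and 1295 FPKM with the siRNA, and all 6 expressed markers were lower with it. Of 12 markers of blood, vessel, stromal, muscle, liver and islet cells only *CD68* and *COL1A1* reached 1 FPKM, and the sum of the 12 was 12.4 FPKM without and 8.46 FPKM with the siRNA. The part of these shifts in the results below was not tested. All cells were of the same line, and in bulk RNA fewer cells expressing a gene and less of its RNA per cell cannot be told apart. The table gives no read counts, but in genes with few reads the ratio of the libraries sits at that of small whole numbers. In 362 such genes 1 read was worth more FPKM in the anti-*APC* library by 0.13 on the log2 scale. With annotated transcript lengths, 1 FPKM on a transcript of 1 kb stood for about 20.7 reads in the untransfected library and 18.9 reads in the anti-*APC* library. Intervals given below are 95% exact intervals built on read numbers estimated from this depth, and they cover counting error only.

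*RHEB* and *RHEBL1* encode proteins of 184 and 183 residues, which were identical at 96 of 184 aligned positions (52.2%) when the longest reading frames of their main GENCODE transcripts were translated. Their coding sequences were identical at 56.8% of 549 aligned bases. The coding stretch for residues 9 to 24 is shown because it holds the loop that grips the phosphates of GTP and is among the more alike parts of the pair. It spans exons 1 and 2 in both genes, on the minus strand at chr7:151188081-151216573 for *RHEB* and chr12:49462870-49463544 for *RHEBL1* (GRCh37), with the intron left out. Capitals mark the 31 of 48 bases that are identical in both.
RHEB: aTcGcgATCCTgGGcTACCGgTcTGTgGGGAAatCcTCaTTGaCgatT
RHEBL1: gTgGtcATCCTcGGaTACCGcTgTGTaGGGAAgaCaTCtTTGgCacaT
Even here no identical run is long. The longest stretch common to the main transcripts was 14 bases, and they shared none of 25 bases. *RHEB* also has 3 annotated pseudogenes, none of which has a row in the table, and whether their reads were counted with *RHEB* is not given in the sources used here.

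*RHEBL1*, a less abundant paralog that can also activate mTORC1, was the member with the largest difference. It had 1.45 FPKM in untransfected cells and 3.14 FPKM with anti-*APC* siRNA, about 35.2 and 69.5 estimated reads. The level with the siRNA was 2.16 times that without it (95% counting interval 1.42 to 3.34), a log2 ratio of 1.11, and the lower bound of this interval is under the 1.5-fold used for calls below. The intervals of both levels did not overlap (1.01 to 2.01 FPKM without, 2.44 to 3.97 FPKM with the siRNA). This is a ratio over untransfected cells and not over scrambled siRNA, the control that the study's methods name for its tests. With the 2 libraries used here, an effect of siRNA delivery on *RHEBL1* therefore cannot be told apart from one of *APC* loss. Neither the size of the ratio nor the call can be ascribed to *APC*. The study's supplement lists *RHEBL1* above untransfected cells with scrambled siRNA as well, by less than with anti-*APC* siRNA. The study lists *RHEBL1* among its candidate genes, which it chose partly on the anti-*APC* library used here together with data not analysed here, so its direction is not independent evidence. *RHEBL1* lies on chromosome 12 of GRCh37 from 49458459 to 49463808 on the minus strand, and no other annotated gene overlaps it (GENCODE 44).

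*RHEB* (chr7:151163098-151217206, minus strand), the main activator of mTORC1, was nearly level. It had 23.9 FPKM in untransfected cells and 25.3 FPKM with anti-*APC* siRNA, a ratio of 1.06 (0.969 to 1.16). The difference in FPKM was 1.69 for *RHEBL1* and 1.42 for *RHEB*, from very different starting levels. For *RHEB* the counting interval of the ratio spans 1, so its difference was not detectable at this depth. *RHEB* was 16.5 times as abundant as *RHEBL1* in untransfected cells (11.8 to 23.8) and 8.08 times as abundant with the siRNA (6.33 to 10.5). *RHEBL1* made up 5.71% of the FPKM of the pair without and 11.01% with the siRNA, and the sum of the pair was 25.4 and 28.5 FPKM.

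**Figure D1:**
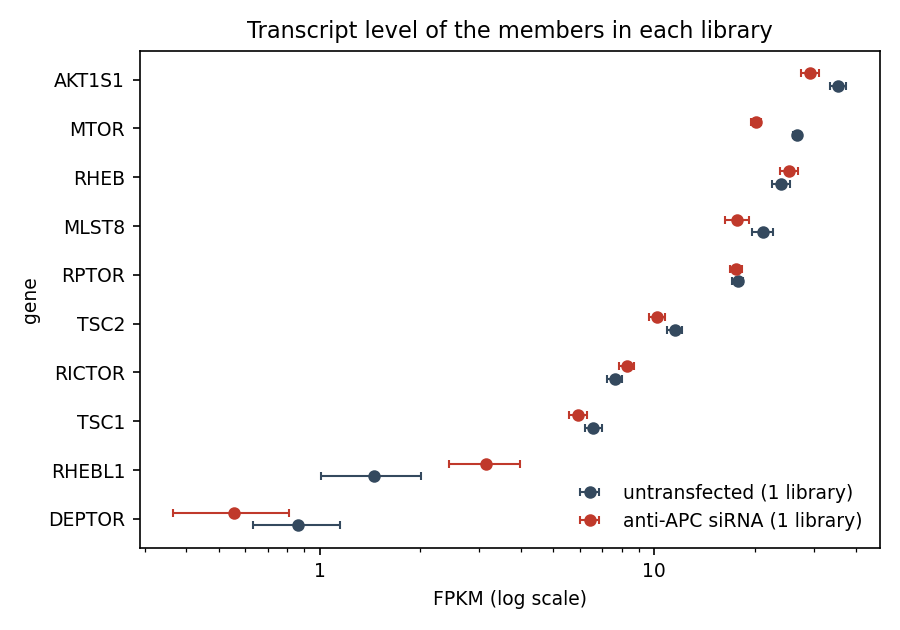
FPKM of each member (log axis) in the untransfected library (dark) and the anti-*APC* siRNA library (red), 1 library each, with bars for the 95% counting interval. *AKT1S1* is the most abundant member in both libraries, and *RHEBL1*, at 1.45 and 3.14 FPKM, and *DEPTOR* are the least abundant.

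*TSC1* and *TSC2* form the brake on RHEB, with TSC2 as the part that acts on the GTPase and TSC1 as the part that stabilises it. *TSC1* (chr9:135766735-135822261, minus strand) had 6.58 FPKM in untransfected cells and 5.92 FPKM with anti-*APC* siRNA, a ratio of 0.899 (0.825 to 0.980). *TSC2* (chr16:2097968-2139492, plus strand) had 11.5 and 10.2 FPKM, a ratio of 0.887 (0.823 to 0.957). Both genes were lower by nearly the same proportion, and *TSC2* was 1.75 times as abundant as *TSC1* without the siRNA and 1.73 times with it. *TBC1D7*, the remaining subunit of the complex, had 9.80 and 10.4 FPKM. *TSC2* shares its row's locus with *PKD1*, which overlaps it on the opposite strand and had 8.99 and 7.64 FPKM, and with the microRNA genes *MIR4516* (140.2 and 115.7 FPKM) and *MIR1225* (listed at 0). Use of strand in the authors' counting is not given in the sources used here, so reads of overlapping genes cannot be told apart.

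*MTOR* (chr1:11166592-11322613, minus strand), the kinase of both complexes, had the largest difference after *RHEBL1* among members of at least 1 FPKM. It had 26.7 FPKM in untransfected cells and 20.1 FPKM with anti-*APC* siRNA, a ratio of 0.753 (0.720 to 0.787). *MLST8* (chr16:2254249-2259454, plus strand), which binds the kinase domain, had 21.1 and 17.7 FPKM, a ratio of 0.840 (0.751 to 0.939). The scaffolds that define the complexes moved little. *RPTOR* (chr17:78518619-78940171, plus strand) had 17.8 and 17.6 FPKM, a ratio of 0.988 (0.933 to 1.05), and *RICTOR* (chr5:38938022-39074504, minus strand) had 7.63 and 8.29 FPKM, a ratio of 1.09 (1.01 to 1.17). *RPTOR* was thus 2.33 times as abundant as *RICTOR* without the siRNA and 2.12 times with it. *MTOR* transcripts were 1.05 times those of *RPTOR* and *RICTOR* together in untransfected cells and 0.778 times with the siRNA. *ANGPTL7*, at the locus of *MTOR*, had at most 0.0932 FPKM, and *C16orf79*, at that of *MLST8*, had 1.17 and 0.709 FPKM. *RICTOR* overlaps *OSMR*, and *TSC1* overlaps *GFI1B*, both on the opposite strand.

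The inhibitors of mTORC1 lay at opposite ends of the range of levels. *AKT1S1* (chr19:50372290-50381716, minus strand), a substrate of AKT that binds RPTOR, was the most abundant member with 35.5 FPKM in untransfected cells and 29.3 FPKM with anti-*APC* siRNA, a ratio of 0.826 (0.759 to 0.898). Its annotated span overlaps *TBC1D17* on the opposite strand, and how reads of that overlap were assigned is not given in the sources used here. *DEPTOR* (chr8:120885957-121063157, plus strand), which binds MTOR directly, was the least abundant with 0.865 and 0.555 FPKM, or 46.0 and 27.0 estimated reads. Its ratio was 0.642, but the counting interval from 0.384 to 1.06 spans 1, so a difference was not detectable at this depth. The antisense gene *DEPTOR-AS1* overlaps its start. The mean of *DEPTOR*, 0.710 FPKM, is below the minimum of 1 FPKM used for calls. *AKT1S1* was 41.1 times as abundant as *DEPTOR* without the siRNA and 52.8 times with it.

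In untransfected cells the members ran, from high to low FPKM, *AKT1S1*, *MTOR*, *RHEB*, *MLST8*, *RPTOR*, *TSC2*, *RICTOR*, *TSC1*, *RHEBL1* and *DEPTOR*. With anti-*APC* siRNA *RHEB* stood above *MTOR*, and the order was otherwise the same. Counting intervals overlapped for the neighbours *RHEB* and *MLST8* and for *RHEBL1* and *DEPTOR* in untransfected cells, and for *MLST8* and *RPTOR* with the siRNA.

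**Figure D2:**
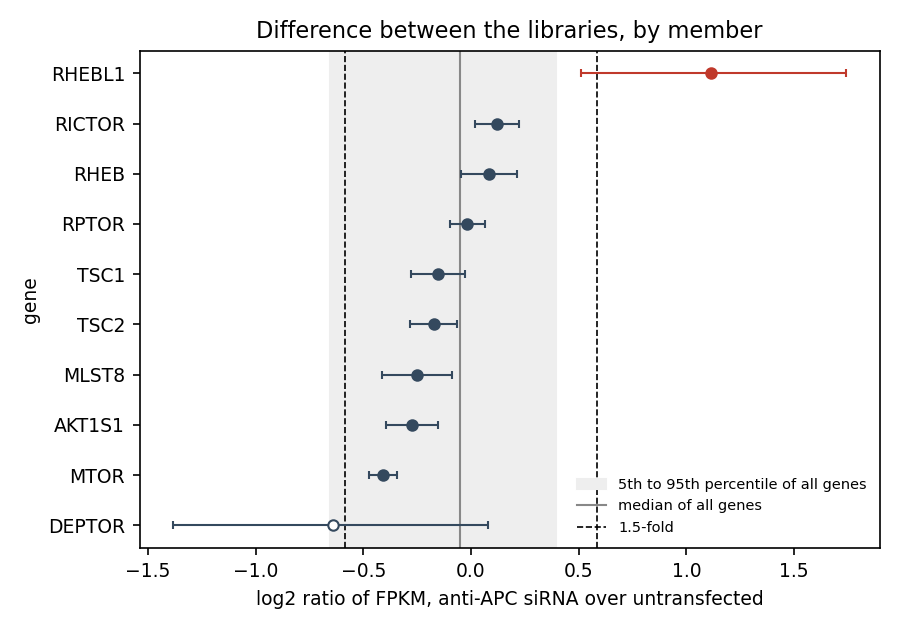
Log2 ratio of FPKM, anti-*APC* siRNA over untransfected, for each member, with bars for the 95% counting interval, beside the 5th to 95th percentile of the 12063 genes that passed the filter (grey, -0.65 to 0.39) and their median (line, -0.05). *RHEBL1* (red, 1.11) is the member past 1.5-fold (dashed), and *DEPTOR* (open) is below the filter.

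A gene was called where the 2 libraries differed by at least 1.5-fold and their mean was at least 1 FPKM. Of the 9 members that passed this filter, 1 was called higher with anti-*APC* siRNA (*RHEBL1*) and 0 were called lower. Among all 12063 genes that passed, 2.56% were called higher and 6.61% lower, so 1 call among 9 genes is a description of *RHEBL1* and not of the group. Ratios of low genes spread more widely. Among the 2862 genes with a mean from 1 to 5 FPKM, the band of *RHEBL1*, 4.3% were called higher and 15.7% lower. In that band 47 genes (1.64%), *RHEBL1* included, had a ratio at least as high as *RHEBL1*, against 90 of all 12063 genes (0.746%). In the band of *DEPTOR*, from 0.5 to 1 FPKM, 9.05% of 818 genes were past 1.5-fold higher and 24% lower.

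The median log2 ratio of the 9 members was -0.15, against -0.05 for all 12063 genes. The level with the siRNA was lower for 6 of the 9, and 58.6% of all genes were lower as well. *MTOR*, at -0.41, was not at the edge of the distribution: 1600 of the 12063 genes (13.3%) had a ratio as low or lower. *AKT1S1* (-0.28) and *MLST8* (-0.25) had 21.9% and 24.2% of genes at or below them. *TSC1*, *TSC2*, *RPTOR*, *RHEB* and *RICTOR* lay between the 32.6th and the 76.9th percentile. Counting intervals of 7 of the 10 members exclude a ratio of 1, but these intervals leave out differences between cultures.

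**Figure D3:**
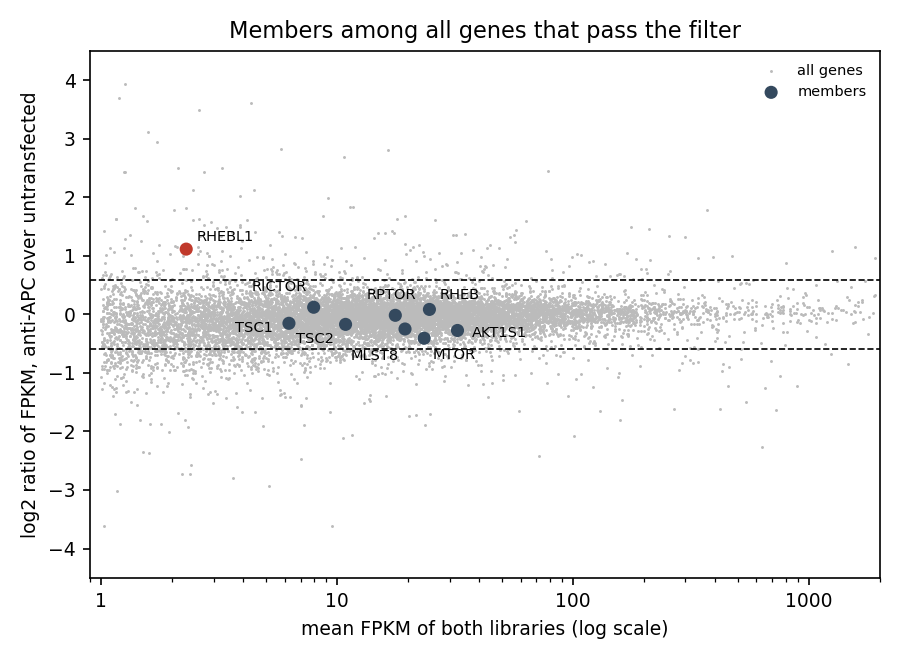
Mean FPKM of both libraries (log axis) against the log2 ratio of FPKM, anti-*APC* siRNA over untransfected, for the 12063 genes that passed the filter (grey, 33 of them outside the axes) and the 9 members that passed (large points), with dashed lines at 1.5-fold. *RHEBL1* (red) lies above the line in the low range, where the spread is wide, and the other 8 members lie inside the lines.

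The genes next to *RHEBL1* were looked at after its value was known. *LMBR1L*, a membrane protein gene, had 5.87 FPKM in untransfected cells and 7.82 FPKM with the siRNA, which is 0.41 as a log2 ratio. *MLL2*, a histone methyltransferase gene, had 13.0 and 12.8 FPKM, and *PRKAG1*, which encodes a subunit of AMPK, had 46.0 and 40.5 FPKM. *DHH*, a hedgehog ligand gene, was near 0 with 0.0209 and 0.0458 FPKM. *TUBA1B*, a tubulin gene, had 1200.5 and 1213 FPKM. Of these genes within 60 kb, the ones that passed the filter were all within 1.5-fold.

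The wider pathway was described with 7 lists of 85 genes, members included, of which 79 passed the filter. With anti-*APC* siRNA 3 of the 79 were called higher and 4 lower, and the median log2 ratio was -0.11. Without the members the counts were 2 higher (2.86%) and 4 lower (5.71%) of 70 genes, close to the share of all genes. No gene was called among the 4 mTORC1 subunits that passed, the 6 genes of mTORC2 and of mTOR assembly or the 13 genes of the Rag GTPases and Ragulator, which bring mTORC1 to the lysosome. The most abundant genes of the last pair of lists were *MAPKAP1*, an mTORC2 subunit with 46.2 and 52.1 FPKM, and *LAMTOR5*, a Ragulator subunit with 92.5 and 83.4 FPKM. All 4 mTORC1 subunits that passed were lower with the siRNA, with a median log2 ratio of -0.26, though *RPTOR* was nearly level (ratio 0.988). Of the 13 Rag and Ragulator genes 9 were lower, with a median of -0.11. Among all genes that passed, 58.6% were lower. In the lists with calls, ratios were below 1 for 2 of 5 genes of the TSC complex and RHEB, 12 of 16 GATOR and amino acid sensor genes, 13 of 19 genes of the PI3K, AKT and AMPK inputs, and 10 of 16 mTORC1 substrates and effectors.

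The called genes outside the members that are described here act on amino acid and stress inputs or downstream of mTORC1. *DDIT4* (REDD1), a stress protein that relieves TSC2 of its inhibition, had 49.9 FPKM in untransfected cells and 21.7 FPKM with anti-*APC* siRNA, a ratio of 0.435 and the lowest of the pathway. No transcript length was matched for it, so it has no counting interval. *SESN2*, a leucine sensor that restrains GATOR2, had 4.21 and 7.55 FPKM, a ratio of 1.79 (1.55 to 2.07). *KICS2* (listed as *C12orf66*), a subunit of the KICSTOR complex that places GATOR1 on lysosomes, had 8.73 and 5.54 FPKM, a ratio of 0.635 (0.563 to 0.715). *LPIN1*, a phosphatidate phosphatase and mTORC1 substrate, had 3.99 and 2.62 FPKM, a ratio of 0.656 (0.562 to 0.764). These genes each stand alone at their locus. *DDIT4* and *SESN2* both encode restraints on mTORC1, and they differed in opposite directions.

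**Figure D4:**
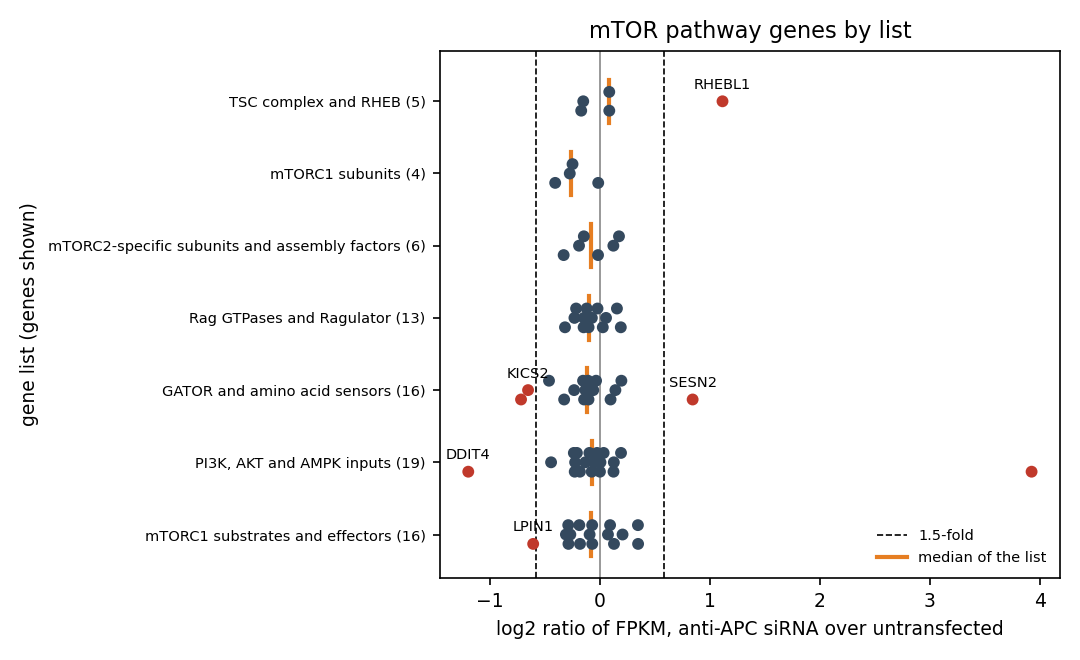
Log2 ratio of FPKM, anti-*APC* siRNA over untransfected, for the 79 pathway genes that passed the filter (points), by list, with the median of each list (orange bar) and 1.5-fold (dashed). Most genes lie within 1.5-fold, and of the 7 called genes (red) those described in the text are named.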

How the data were processed

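Expression was measured in 3 HCT-116 libraries, of which 2 were used. Single-end reads from TruSeq preparations were assigned to transcripts by the authors with Cufflinks and Cuffdiff (hg19), who deposited FPKM values per gene for the anti-*APC* siRNA and untransfected libraries. Versions, aligner, annotation and strand setting are not given in the sources used here. FPKM is scaled to mapped reads and transcript length, so it does not show a change in total RNA per cell. The table also holds the authors' own log ratio, test statistic, p-value and q-value, which were not used. Cuffdiff's status was OK for 16372 rows, and 269 rows marked as failed are listed at 0.

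Log2 ratios were computed without a pseudocount for genes above 0 in both libraries with a mean of at least 1 FPKM. A ratio of 1.5 either way was the call. No test was run. Depth came from 529 genes under 1 FPKM, alone at their locus and with transcripts over 500 bases, whose ratio matched unequal whole numbers up to 4 within 0.0015 (median 20.7 reads per FPKM and kb in the untransfected library, quartiles 9.11 and 25.8). Read numbers used the main GENCODE 44 transcript on GRCh37, without correction for fragment length, and ratios have exact binomial and levels exact Poisson intervals. The depth estimate, the calls and the interval formula were tested on simulated data. The depth check used the transcript lengths that generated those data, so it does not cover error in the annotated lengths. The interval check used the true simulated read numbers and depths, so it does not cover error in the estimated ones. Members and gene lists were chosen with earlier results of these data known. Named genes are the members, the called genes of each pathway list or else its most abundant gene, genes at a member's locus, *APC*, *CTNNB1* and *AXIN2*. Called pathway genes other than those named are not reported here. The neighbours of *RHEBL1*, *TBC1D7* and single markers were named after their values were seen. Alternatives were other pseudocounts, filters, scalings and fold thresholds, a depth of 0.5 times the estimate, and, added after the data were seen, genes alone at their locus. Software versions were scipy 1.17.1, Biopython 1.88, matplotlib 3.10.9, pandas 2.3.3 and numpy 2.4.6, run under Python 3.11.15.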

Additional observations from a re-analysis of the deposited data

How the results depend on the processing

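*RHEBL1* was called higher under all alternatives except the minimum of 5 FPKM, which it misses. Its log2 ratio ranged from 0.76 (pseudocount of 1 FPKM) to 1.17 (median of all genes subtracted), and with 0.5 times the estimated depth its ratio of 2.16 had an interval from 1.19 to 4.08. The median of the members stayed between -0.22 and -0.10. Of 66 values under an alternative, 46 moved by less than 1.5 times or less than their counting interval and 20 moved further. No log2 ratio among them changed sign, and the rest, counts and ratios of levels, cannot change sign. No paired analysis was possible because each condition has 1 library.

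With a minimum of 5 FPKM, 0 members, 1 pathway gene (*SESN2*) and 186 genes in all were called higher, and 2 pathway genes and 347 genes lower. Without the minimum, 1084 genes were higher and 2078 lower, and 1 member (*DEPTOR*) was lower. The lower fold threshold that was tried gave 865 genes higher and 2219 lower, 5 and 9 pathway genes, and 1 member lower (*MTOR*). A threshold of 2-fold gave 115 and 165 genes, and 1 pathway gene lower (*DDIT4*). A pseudocount of 1 FPKM left 448 genes and 1 pathway gene lower, and *RHEB* was then 10.2 times *RHEBL1* in untransfected cells, since a pseudocount raises the lower gene more. With genes alone at their locus 182 genes were higher. Subtracting the median gave 353 genes higher and 652 lower, against 309 and 797 as deposited.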
